A study of Drosophila melanogaster with 9 samples.

Results

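The 6 conventional actin genes of Drosophila, Act5C, Act42A, Act57B, Act79B, Act87E and Act88F, were followed across the 9 libraries of an RNA sequencing experiment in Kc167 cells. They were taken by gene symbol from the deposited table, and all 6 were found among its 14797 genes. Kc167 is an established cell line made from Drosophila embryos, with properties of hemocytes, the blood cells of the fly. There were 3 groups of 3 libraries each. In the first, cells received double-stranded RNA against ph, E(z) and CtBP (ph+E(z)+CtBP RNAi), in the second against ph and E(z) (ph+E(z) RNAi), and in the third a control RNAi whose target the labels do not name. All 3 groups were given 15 µg of double-stranded RNA for a set number of cells in serum-free medium. They were returned to serum and collected on day 7, so the controls shared these steps with the treated cells. The groups differed in the number of targets, and whether 15 µg was the total or the amount per target is not given here. The ph locus holds the tandem genes ph-p and ph-d, which encode the Polyhomeotic protein of the complex PRC1. The product of E(z) is the enzyme of PRC2 that methylates histone H3, and CtBP encodes a corepressor of transcription. The labels name 1 line only and do not say whether replicates were separate cultures, so p-values measure the spread between these libraries, which may be technical.

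Actin is the monomer of actin filaments, which shape the cell cortex, drive migration and phagocytosis, and form the thin filaments of muscle. In the fly, Act5C and Act42A are the cytoplasmic actins, made in nearly all cells. The remaining members are known as muscle actins: Act57B and Act87E of larval and other body muscles, Act79B of adult leg and thoracic muscles, and Act88F of the indirect flight muscles. The amount of free actin monomer is set by the balance of filament assembly and disassembly, and the regulators of that balance were examined beside the 6 genes.

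The 6 genes lie at separate places in the genome. In the dm6 annotation (BDGP6.54), matched by FlyBase identifier, Act5C (FBgn0000042) occupies chromosome X from 5900861 to 5905399 on the plus strand. It has 5 transcripts of 1637 to 2863 nucleotides that start from 2 first exons, with the coding sequence inside 1 exon. Act42A (FBgn0000043) occupies chromosome 2R from 6013910 to 6015689 on the minus strand, with 1 transcript of 1626 nucleotides. Act57B (FBgn0000044) lies on 2R from 20944021 to 20946431 on the plus strand and Act79B (FBgn0000045) on 3L from 21985210 to 21987190 on the plus strand. Act87E (FBgn0000046) lies on 3R from 13425983 to 13428375 and Act88F (FBgn0000047) on 3R from 15439969 to 15442177, both on the plus strand. The coding sequence of Act57B, Act79B and Act88F is split over 2 exons, and that of Act87E lies in 1. In spite of these differences in exons, each of the 6 coding sequences is 1128 bases long without its stop codon, which makes 376 codons. The 6 proteins are known to be nearly identical, and the sources used here do not say how reads that match several actin genes were shared, so small amounts assigned to 1 gene beside an abundant relative are uncertain. Act87E overlaps the antisense gene lncRNA:CR45591 by 196 bases and Act57B overlaps a snoRNA gene on its own strand by 96 bases, and whether counting used the strand is not given. That snoRNA was listed at 0 in every library.

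The values are FPKM, fragments per kilobase of a transcript in relation to all mapped fragments, so levels of different genes are compared per length. Library sums ran from 725406 to 908290 FPKM, and between 8219 and 8632 genes were at 0.5 FPKM or more. The RNAi targets were checked first. E(z) lay at 9.85, 8.93 and 9.68 FPKM with ph+E(z)+CtBP RNAi and at 12.1, 8.81 and 8.29 FPKM with ph+E(z) RNAi, against 43.4, 37.4 and 31.2 FPKM in the controls. CtBP lay between 41.8 and 65.8 FPKM with ph+E(z)+CtBP RNAi, against 205 to 221 FPKM with ph+E(z) RNAi. In ph-p and ph-d, near-identical copies whose reads may be split, the library labelled control replicate 1 went against its label. The 6 libraries treated against ph had 7.15 to 10.3 FPKM of ph-p, against 4.64 FPKM in that library and 18.9 and 18.1 FPKM in the other 2 controls. For ph-d, the treated libraries had 3.73 to 4.99 FPKM, against 1.26 FPKM in that library and 5.72 and 4.87 FPKM in the other 2 controls. Neither gene passed the test with ph+E(z) RNAi against control RNAi, where the log2 change was −0.62 for ph-p (limma adjusted p = 0.486) and 0.38 for ph-d (limma adjusted p = 0.629). That library also stood apart in its ribosomal protein genes, which made up 40.0% of all FPKM there, while elsewhere this share was 26.7% to 31.0%. Results that rest on it are therefore given with and without it.

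The cytoplasmic members carried nearly all actin RNA. Act5C was at 3923, 3957 and 2915 FPKM in the 3 libraries with ph+E(z)+CtBP RNAi, at 3302, 3074 and 3053 FPKM with ph+E(z) RNAi, and at 3921, 2740 and 2712 FPKM with control RNAi. It ranked between 17 and 48 among all genes by FPKM in the 9 libraries. The groups overlapped, and the library labelled control replicate 1 lay beside the upper libraries of the ph+E(z)+CtBP group. Act42A was at 1653, 1554 and 1046 FPKM with ph+E(z)+CtBP RNAi, at 1469, 1484 and 1439 FPKM with ph+E(z) RNAi, and at 519, 669 and 664 FPKM with control RNAi. Every library of both treated groups lay above every control library, as 13.8% of the tested genes did with ph+E(z) RNAi and 18.4% with ph+E(z)+CtBP RNAi. Act42A ranked between 78 and 124 with ph+E(z)+CtBP RNAi and at 89 or 90 with ph+E(z) RNAi, against 163 to 218 with control RNAi. Its level within the ph+E(z)+CtBP group was set apart by replicate 3, which was also the lowest library of that group for Act5C and Act87E.

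**Figure D1:**
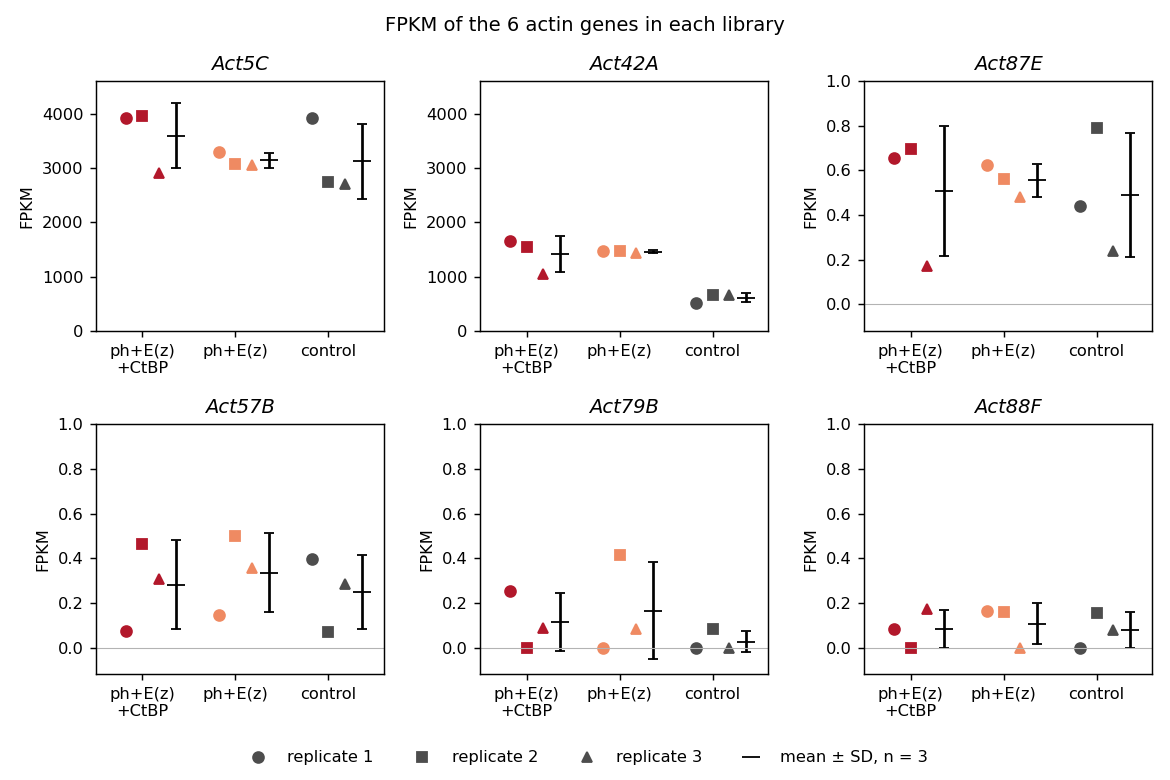
FPKM of each actin gene (vertical axes) in the 9 libraries, with the 3 groups on the horizontal axis, 1 point per library and the mean ± SD of 3 libraries beside them. Act42A has no treated library below 1046 FPKM and no control library above 669 FPKM, while the groups overlap in the other 5 genes. The scale of the first 2 panels runs far above that of the other 4, which ends at 1 FPKM.

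Ordered by level, Act5C stood above Act42A and Act42A above Act87E in 9 of 9 libraries, and the ranges of these neighbours did not overlap in any group. Below them the order was not resolved. Act87E exceeded Act57B in 7 of 9 libraries, Act57B exceeded Act79B in 7 of 9 and Act79B exceeded Act88F in 3 of 9, and each of these pairs overlapped in range in every group. The 4 muscle actins together made 0.0179% to 0.0358% of the FPKM of the family in a library.

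Of the 6 members, Act5C, Act42A and Act87E passed the filter of at least 0.5 FPKM in at least 3 libraries, as did 8853 genes in all. They were read in a limma fit of log2(FPKM + 0.5) across those genes, with p-values adjusted by Benjamini-Hochberg over all of them. Log2 changes are given ± SE, and the added 0.5 FPKM makes the change of a gene at low FPKM smaller than its ratio.

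Under ph+E(z) RNAi compared with control RNAi, Act42A, a cytoplasmic actin, rose by 1.25 ± 0.19 on the log2 scale, a 2.39-fold difference (limma adjusted p = 0.00979). Its group means were 1464 ± 23.1 FPKM with ph+E(z) RNAi and 617 ± 85.6 FPKM with control RNAi (SD, n = 3 each). The 95% interval of the log2 change was 0.82 to 1.69, and 96.4% of the tested genes had a smaller change. In this comparison 347 of 8853 genes, 3.92%, passed the threshold of 0.05 in either direction, and 2.58% passed it as higher. Without the library labelled control replicate 1 the change was 1.13 ± 0.18 (limma adjusted p = 0.0112). Leaving out ph+E(z) replicate 2 gave a log2 change of 1.24 and ended the call (limma adjusted p = 0.0598), and so did leaving out replicate 3, at 1.27 (limma adjusted p = 0.0516). In the authors' deposited table, the q-value of Act42A for these groups was 0.00102.

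Act5C, the other cytoplasmic actin, averaged 3143 ± 138 FPKM with ph+E(z) RNAi and 3124 ± 690 FPKM with control RNAi (SD, n = 3 each). Its log2 change was 0.03 ± 0.19 (limma adjusted p = 0.943), with a 95% interval of −0.41 to 0.47, and without the library labelled control replicate 1 it was 0.20 ± 0.14 (limma adjusted p = 0.433). Act87E averaged 0.555 ± 0.0731 FPKM with ph+E(z) RNAi and 0.490 ± 0.278 FPKM with control RNAi, and its log2 change of 0.13 ± 0.30 did not pass the test (limma adjusted p = 0.827). The authors' deposited table gave a q-value of 0.994 for Act5C and marked the 4 muscle actins as not tested.

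Adding CtBP RNAi to ph+E(z) RNAi changed 0 of the 3 tested members past the threshold of limma, which 3.72% of the tested genes passed. At an unadjusted limma p under 0.05 there were also 0 of the 3, beside 1288 of all 8853 tested genes. Act5C averaged 3598 ± 592 FPKM with ph+E(z)+CtBP RNAi and 3143 ± 138 FPKM with ph+E(z) RNAi, a log2 change of 0.18 ± 0.19 (limma adjusted p = 0.788). For Act42A the means were 1418 ± 326 FPKM with ph+E(z)+CtBP RNAi and 1464 ± 23.1 FPKM with ph+E(z) RNAi. The log2 change of Act42A was −0.07 ± 0.19 (limma adjusted p = 0.946), and its 95% interval of −0.51 to 0.36 covers differences in both directions. For Act87E the log2 change was −0.11 ± 0.30 (limma adjusted p = 0.951). When ph+E(z)+CtBP replicate 3 was left out, the log2 change of Act42A was 0.13 (limma adjusted p = 0.846). The authors' deposited table gave q-values of 0.968 for Act42A and 0.826 for Act5C in this comparison.

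With all 3 targets against control RNAi, Act42A was again the member that changed. It rose by 1.18 ± 0.19 on the log2 scale, a 2.27-fold difference (limma adjusted p = 0.00781), where 9.73% of the tested genes passed the threshold and 5.58% passed it as higher. Without the library labelled control replicate 1 the change was 1.06 ± 0.18 (limma adjusted p = 0.00709). Act5C had a log2 change of 0.21 ± 0.19 (limma adjusted p = 0.482) with a 95% interval of −0.23 to 0.65, and of 0.39 ± 0.14 (limma adjusted p = 0.0951) without that library. In a further fit, libraries were given quality weights, which limma estimates from the spread in these same data. Act5C then passed the threshold, at 0.48 against control RNAi (limma adjusted p = 0.002) and at 0.31 against ph+E(z) RNAi (limma adjusted p = 0.0212). Those weights called many more of the tested genes in each comparison than the main fit, as counted in the last section. Act87E had a log2 change of 0.02 ± 0.30 (limma adjusted p = 0.979). Both comparisons against control RNAi share the same control libraries.

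**Figure D2:**
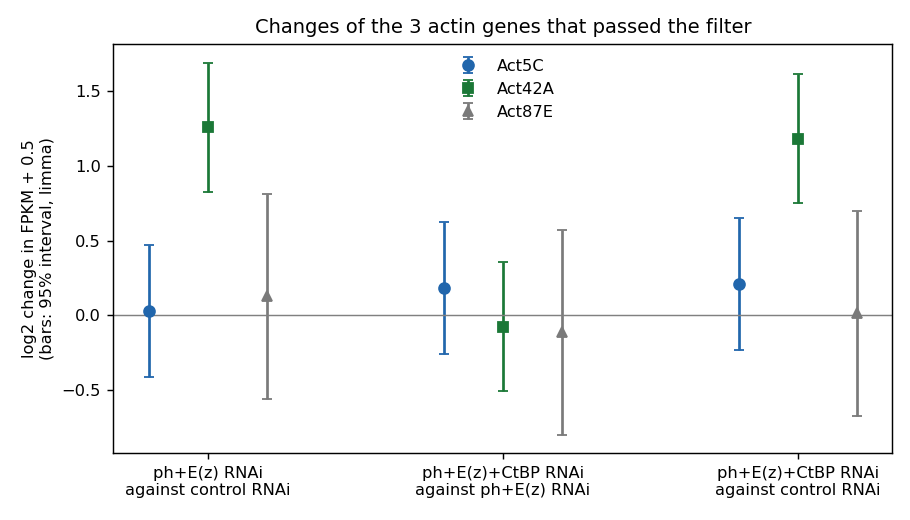
Log2 changes in FPKM + 0.5 (vertical axis) of Act5C, Act42A and Act87E in the 3 comparisons (horizontal axis), with 95% intervals from limma. The interval of Act42A lies above 0 in both comparisons with control RNAi, and every other interval crosses 0.

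The ratio of Act42A to Act5C uses 2 genes of the same library and does not depend on the scaling between libraries. It was 0.421, 0.393 and 0.359 with ph+E(z)+CtBP RNAi, 0.445, 0.483 and 0.471 with ph+E(z) RNAi, and 0.132, 0.244 and 0.245 with control RNAi. The 3 groups did not overlap, with ph+E(z) RNAi above ph+E(z)+CtBP RNAi and both above the controls. The mean log2 difference was 1.23 for ph+E(z) RNAi against control RNAi, −0.26 for ph+E(z)+CtBP RNAi relative to ph+E(z) RNAi and 0.97 for ph+E(z)+CtBP RNAi against control RNAi. Without the library labelled control replicate 1, the differences from control RNAi were 0.93 and 0.67. The ratio was chosen with the levels known and was not tested.

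Summed over the 6 genes, actin took 0.769%, 0.747% and 0.527% of all FPKM with ph+E(z)+CtBP RNAi, 0.609%, 0.588% and 0.582% with ph+E(z) RNAi, and 0.489%, 0.464% and 0.451% with control RNAi. In this share each treated group lay above the controls, and the range of the ph+E(z)+CtBP libraries contained that of the ph+E(z) libraries. The library labelled control replicate 1 had the highest total, 908290 FPKM, against 725406 to 783346 FPKM elsewhere. In FPKM, its actin sum of 4440 lay above the 3961 of ph+E(z)+CtBP replicate 3 and just under the 4492 of ph+E(z) replicate 3. Act42A made up 29.6%, 28.2% and 26.4% of that sum with ph+E(z)+CtBP RNAi and 30.8%, 32.5% and 32.0% with ph+E(z) RNAi, against 11.7%, 19.6% and 19.7% with control RNAi. In bulk RNA, fewer cells that make a transcript and less of it per cell cannot be told apart.

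**Figure D3:**
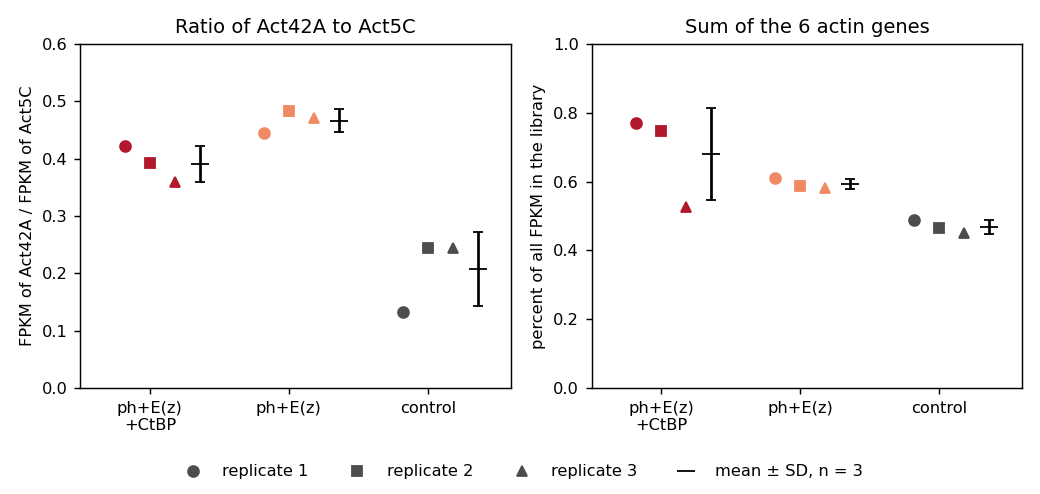
Left, FPKM of Act42A divided by FPKM of Act5C, and right, the sum of the 6 actin genes as a percentage of all FPKM, with 1 point per library, the 3 groups on the horizontal axis and the mean ± SD of 3 libraries beside them. The ratio is 0.359 or more in all 6 treated libraries and 0.245 or less in the 3 controls.

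The deposited positions of Act42A and of Act57B were each shared by 1 further gene. For Act42A it was PNGase (FBgn0033050), which encodes a peptide N-glycanase and does not overlap Act42A in the dm6 annotation. PNGase lay at 87.0, 90.3 and 83.0 FPKM with ph+E(z)+CtBP RNAi, 73.4, 81.9 and 79.3 FPKM with ph+E(z) RNAi and 78.5, 68.0 and 67.5 FPKM with control RNAi. Its log2 change was 0.13 with ph+E(z) RNAi against control RNAi (limma adjusted p = 0.494) and 0.28 with ph+E(z)+CtBP RNAi against control RNAi (limma adjusted p = 0.117).

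The muscle actins were near the limit of what the libraries could count. In genes with at least 3 non-zero values, all under 0.3 FPKM, the smallest was taken as 1 fragment, and 4029 of the 4650 remaining non-zero values were then whole multiples of it within 2%. Fragment numbers were then read back for Act57B, Act79B and Act88F, again with the smallest non-zero value taken as 1 fragment. Some values of Act57B and Act79B lay above 0.3 FPKM. Each of the 3 genes was whole in 9 of 9 libraries, but zeros and the smallest value are whole by construction. Act79B and Act88F were at 0 in several libraries, so for them this count says little. By that measure Act5C stood at 33923 to 53479 times, and Act42A at 7073 to 20316 times, the FPKM of 1 Act88F fragment in the same library. The intervals below are exact 95% Poisson intervals, which cover counting error only.

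Act57B, an actin of larval body muscle, had 0.0731, 0.465 and 0.309 FPKM with ph+E(z)+CtBP RNAi, 0.148, 0.50 and 0.358 FPKM with ph+E(z) RNAi, and 0.395, 0.0705 and 0.285 FPKM with control RNAi. These values correspond to 1, 6 and 4 fragments, to 2, 7 and 5 fragments, and to 6, 1 and 4 fragments in the same libraries. Summed, there were 11 fragments with ph+E(z)+CtBP RNAi (interval 5.49 to 19.7), 14 with ph+E(z) RNAi (7.65 to 23.5) and 11 with control RNAi (5.49 to 19.7). The groups overlapped, and each contained 1 library with no more than 2 fragments.

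Act79B, an actin of adult leg and thoracic muscle, had 3, 0 and 1 fragments with ph+E(z)+CtBP RNAi, 0, 5 and 1 with ph+E(z) RNAi, and 0, 1 and 0 with control RNAi. Its values reached 0.253 FPKM with ph+E(z)+CtBP RNAi and 0.412 FPKM with ph+E(z) RNAi, against 0.0814 FPKM with control RNAi. The sums were 4 fragments (interval 1.09 to 10.2) with ph+E(z)+CtBP RNAi, 6 (2.2 to 13.1) with ph+E(z) RNAi and 1 (0.0253 to 5.57) with control RNAi. These intervals overlap, and 5 of the 6 fragments of the ph+E(z) group came from replicate 2, so a difference was not detectable at this depth.

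Act88F, the flight muscle actin, had 1, 0 and 2 fragments with ph+E(z)+CtBP RNAi, 2, 2 and 0 with ph+E(z) RNAi, and 0, 2 and 1 with control RNAi. No library exceeded 0.172 FPKM, and the sums were 3, 4 and 3 fragments. Act87E, the third tested member, had 0.654, 0.694 and 0.173 FPKM with ph+E(z)+CtBP RNAi, 0.626, 0.559 and 0.480 FPKM with ph+E(z) RNAi, and 0.442, 0.789 and 0.239 FPKM with control RNAi. Its values were whole multiples in 6 of 9 libraries, so no fragment number is given. They were 2.01 to 10.1 times the FPKM of 1 Act88F fragment, and the 3 groups overlapped.

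The low muscle actins were set beside 21 other muscle markers, all of which were found in the table. Muscle myosin heavy chain, Mhc, reached at most 0.342 FPKM in any library, the myosin light chain Mlc1 0.504 FPKM, flightin (fln) 0.640 FPKM and troponin T (up) 0.688 FPKM. The titin-like gene sls was listed at 0 in every library. Other markers besides Tm1 lay higher. Mef2 ranged from 13.4 to 25.3 FPKM over the 9 libraries, TpnC4 from 6.14 to 18.2 FPKM and TpnC41C from 1.38 to 7.58 FPKM. Over the same libraries Msp-300 averaged 11.04 FPKM and Strn-Mlck 7.77 FPKM. The mean was under 1 FPKM for 13 of 21 markers with ph+E(z)+CtBP RNAi, 13 with ph+E(z) RNAi and 12 with control RNAi, and 3, 3 and 2 of them were at 0 in every library of the group. Their summed level was 728 to 801 FPKM with ph+E(z)+CtBP RNAi, 610 to 625 FPKM with ph+E(z) RNAi and 269 to 630 FPKM with control RNAi. Most of it came from tropomyosin 1 (Tm1), which also has non-muscle forms and lay at 215 FPKM in the library labelled control replicate 1, against 549 to 718 FPKM in the other 8.

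Of the 10 muscle markers that passed the filter, 0 passed the test with ph+E(z) RNAi against control RNAi and 0 with ph+E(z)+CtBP RNAi relative to ph+E(z) RNAi. At an unadjusted p under 0.05 limma had 3 of the 10 in each of these comparisons, beside 1529 and 1288 of all 8853 tested genes. For ph+E(z)+CtBP RNAi against control RNAi, 2 rose and 0 fell, beside 9.73% of all tested genes. They were Mlc2, a myosin regulatory light chain of muscle, at 1.27 ± 0.20 on the log2 scale (limma adjusted p = 0.00794), and wupA, troponin I, at 1.53 ± 0.35 (limma adjusted p = 0.0323). Mlc2 lay at 13.8, 14.8 and 8.64 FPKM with ph+E(z)+CtBP RNAi and at 5.12, 4.25 and 4.89 FPKM with control RNAi, and its call held with each of the 9 libraries left out. The call of wupA was lost with any of 6 libraries left out, namely each ph+E(z)+CtBP library, ph+E(z) replicate 2 and control replicates 2 and 3, with adjusted p up to 0.124.

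The hemocyte markers were examined because the line is labelled Kc167. All 12 were above 0 in every group. Their summed level was 869 to 1041 FPKM with ph+E(z)+CtBP RNAi, 2411 to 3046 FPKM with ph+E(z) RNAi and 1479 to 1777 FPKM with control RNAi. With ph+E(z) RNAi against control RNAi, 3 rose and 1 fell (median log2 change 0.53), beside 2.58% and 1.34% of all tested genes. The addition of CtBP RNAi left 0 higher and 7 lower (median −2.15), beside 1.94% and 1.77% of all tested genes, and ph+E(z)+CtBP RNAi against control RNAi gave 0 higher and 6 lower (median −0.74), beside 5.58% and 4.15%. In the first of these comparisons nimC1, He and Glt rose and Cg25C fell, and each of these 4 calls was lost with 3 to 7 of the 9 libraries left out in turn. For the addition of CtBP RNAi, the call of Glt was lost with 4 of the libraries left out and that of vkg with 3, and for ph+E(z)+CtBP RNAi against control RNAi that of He was lost with 7. Without the library labelled control replicate 1 the 3 counts were 4 higher and 1 lower, 1 and 9, and 1 and 9. No share over all tested genes is set beside these counts, since the shares above belong to the fit of all 9 libraries. Calls over all tested genes also moved widely with a library left out, as counted in the last section. The counts without that library are therefore not a result about hemocyte markers. The phagocytosis receptor nimC1 lay at 1.33, 1.16 and 1.09 FPKM with ph+E(z)+CtBP RNAi, at 7.85, 14.0 and 14.6 FPKM with ph+E(z) RNAi and at 3.82, 4.21 and 3.90 FPKM with control RNAi. In other markers the controls were less alike. The library labelled control replicate 1 had 8.06 FPKM of Hml, against 173 and 164 FPKM in the other controls. Its srp was at 77.7 FPKM, against 164 and 165 FPKM, while its He was higher, at 405 FPKM against 291 and 262 FPKM. Not all markers fell when CtBP RNAi was added. Levels of ush averaged 170 FPKM, against 123 FPKM with ph+E(z) RNAi, and those of crq 44.9 against 44.1 FPKM. The part of these markers in the change of Act42A was not tested.

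Regulators of actin were taken as 8 lists, from nucleators to the transcription factors that respond to free actin. They held 97 genes that were found in the table, of which 91 were tested. With ph+E(z) RNAi against control RNAi, 2 rose and 1 fell, beside 2.58% and 1.34% of all tested genes, and the median log2 change was 0.09 (all tested genes −0.0011). When CtBP RNAi was added to ph+E(z) RNAi, 6 rose and 0 fell, beside 1.94% and 1.77% of all tested genes, with a median of 0.11 (all −0.0084). Between ph+E(z)+CtBP RNAi and control RNAi, 16 rose and 1 fell, beside 5.58% and 4.15% of all tested genes, with a median of 0.18 (all −0.0039). Calls that held with each of the 9 libraries left out numbered 1 of 3, 2 of 6 and 7 of 17 in the 3 comparisons. Without the library labelled control replicate 1, an alternative chosen after the data were seen, the counts were 9 higher and 3 lower, 23 and 1, and 28 and 1. The shares above belong to the fit of all 9 libraries, and none over all genes is set beside these counts. With a library left out, calls over all tested genes ran well above and well below those of the main fit, as counted in the last section. The counts without that library are therefore not a result about regulators of actin. The 3 calls of the first comparison became 1 when ph+E(z) replicate 2 or 3 or control replicate 2 or 3 was left out. The 6 calls of the second became 3 without ph+E(z)+CtBP replicate 1 or 2 or ph+E(z) replicate 2, and leaving out ph+E(z) replicate 3 gave 2. Of the third, there were 7 calls without ph+E(z)+CtBP replicate 1, 9 without its replicate 2 and 11 without control replicate 3, against 17 with all libraries.

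Nucleators and elongation factors start and extend filaments. In this list of 24 tested genes 1 rose and 0 fell with ph+E(z) RNAi against control RNAi, beside 2.58% and 1.34% of all tested genes. The median log2 change was 0.18. The riser was capu, a formin that nucleates actin filaments in the oocyte, at 7.06, 9.28 and 9.32 FPKM with ph+E(z) RNAi and 1.00, 1.49 and 1.35 FPKM with control RNAi. All 3 treated libraries lay above all controls, and the log2 change was 2.35 ± 0.18 (limma adjusted p = 0.000367). The call of capu held with each of the 9 libraries left out.

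With ph+E(z)+CtBP RNAi against control RNAi, 6 of these 24 genes rose and 0 fell (median 0.39), beside 5.58% and 4.15% of all tested genes. They were capu at 2.0 ± 0.18 (limma adjusted p = 0.000669), its partner spir, which carries actin-binding WH2 domains, at 1.76 ± 0.24 (limma adjusted p = 0.00379), the formin Fhos, WASp, which activates the Arp2/3 complex, and Hem and Sra-1, subunits of the WAVE regulatory complex. The gene spir lay at 56.6, 54.6 and 34.3 FPKM with ph+E(z)+CtBP RNAi and at 11.4, 14.7 and 15.0 FPKM with control RNAi. The calls of Hem and Sra-1 were lost without ph+E(z)+CtBP replicate 1 or 2, and that of Sra-1 also without control replicate 3. Relative to ph+E(z) RNAi alone, 1 of the 24 rose with ph+E(z)+CtBP RNAi, beside 1.94% of all tested genes. It was Fhos, at 36.8, 33.1 and 33.9 FPKM with ph+E(z)+CtBP RNAi and 17.5, 15.8 and 16.2 FPKM with ph+E(z) RNAi. Its log2 change was 1.05 ± 0.13 (limma adjusted p = 0.00515), and it held with each of the 9 libraries left out.

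Capping and severing proteins end or cut filaments. Of 13 tested, 1 rose with ph+E(z) RNAi against control RNAi (median −0.0042), beside 2.58% of all tested genes. It was Gel, the severing protein gelsolin, which lay at 246, 370 and 371 FPKM with ph+E(z) RNAi and at 183, 147 and 143 FPKM with control RNAi. Its log2 change was 1.04 ± 0.23 (limma adjusted p = 0.049). That call was lost with any of 6 libraries left out, namely ph+E(z)+CtBP replicates 1 and 2, ph+E(z) replicates 2 and 3 and control replicates 2 and 3. With ph+E(z)+CtBP RNAi relative to ph+E(z) RNAi, 1 of 13 rose, beside 1.94% of all tested genes. It was CG31012 (cindr), an adaptor that binds capping protein, by 0.61 ± 0.08 (limma adjusted p = 0.00712). Leaving out ph+E(z) replicate 3 ended that call (limma adjusted p = 0.0545). With ph+E(z)+CtBP RNAi against control RNAi, 2 of 13 rose (median 0.14), beside 5.58% of all tested genes. They were CG31012, by 0.32 ± 0.08, and CG5869 (GMF), which acts on Arp2/3 branches, by 0.55 ± 0.13 (limma adjusted p = 0.0465 and 0.0304). Both of these calls were lost without ph+E(z)+CtBP replicates 1 or 2, ph+E(z) replicate 2 or control replicates 2 or 3, and that of CG31012 also without ph+E(z)+CtBP replicate 3 or ph+E(z) replicates 1 or 3.

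Among 16 tested crosslinkers and membrane linkers, 0 rose and 1 fell with ph+E(z) RNAi against control RNAi (median 0.28). The shares of all tested genes were 2.58% and 1.34%. The gene that fell was Actn, alpha-actinin, a crosslinker of filaments, at 7.20, 7.14 and 5.92 FPKM with ph+E(z) RNAi and 13.5, 14.1 and 13.5 FPKM with control RNAi. Its log2 change was −0.97 ± 0.17 (limma adjusted p = 0.0199), a call lost without ph+E(z) replicates 2 or 3 or control replicates 2 or 3. When CtBP RNAi was added, 1 rose (median 0.17), beside 1.94% of all tested genes. It was the plastin Fim, by 0.92 ± 0.16 (limma adjusted p = 0.0166). The call of Fim was lost without ph+E(z)+CtBP replicates 1 or 2 or ph+E(z) replicates 2 or 3. For ph+E(z)+CtBP RNAi against control RNAi, 4 rose and 1 fell (median 0.52), beside 5.58% and 4.15% of all tested genes. Zasp52, an alpha-actinin partner of the Z-disc, rose by 2.16 ± 0.35 (limma adjusted p = 0.00838), at 88.5, 83.5 and 47.6 FPKM with ph+E(z)+CtBP RNAi and 8.85, 19.8 and 20.5 FPKM with control RNAi. Fim and the spectrins beta-Spec and alpha-Spec also rose, and Actn fell by 0.76 (limma adjusted p = 0.0289). Of these 5 calls, that of Zasp52 held with each of the 9 libraries left out, those of Fim and beta-Spec were lost without ph+E(z)+CtBP replicate 1, that of Actn without any of 5 libraries and that of alpha-Spec without any of 7.

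Myosins pull on filaments. Of 11 tested myosins, light chains and their regulators, 0 passed the test with ph+E(z) RNAi against control RNAi (median 0.24). At an unadjusted limma p under 0.05 there were 2, beside 1529 of all 8853 tested genes. In each of the other comparisons 3 rose (medians 0.17 and 0.67), beside 1.94% and 5.58% of all tested genes. The 3 were the same genes in both: Myo31DF, a class I myosin known for setting left-right asymmetry, rok, a kinase that activates myosin II, and jar, myosin VI. Myo31DF lay at 207, 195 and 156 FPKM with ph+E(z)+CtBP RNAi, at 90.7, 87.0 and 90.0 FPKM with ph+E(z) RNAi, and at 70.6, 78.7 and 81.5 FPKM with control RNAi. Its log2 change with ph+E(z)+CtBP RNAi was 1.05 ± 0.12 against ph+E(z) RNAi (limma adjusted p = 0.00482) and 1.26 ± 0.12 against control RNAi (limma adjusted p = 0.00106), and both calls held with each of the 9 libraries left out. The gene rok rose by 0.91 ± 0.14 and jar by 0.85 ± 0.13 against ph+E(z) RNAi (limma adjusted p = 0.0111 and 0.0118). Those 2 calls were lost without ph+E(z)+CtBP replicates 1 or 2 or ph+E(z) replicates 2 or 3. Against control RNAi the call of jar was also lost without ph+E(z)+CtBP replicate 1 or 2, with adjusted p up to 0.0715 in limma. Non-muscle myosin heavy chain, zip, which was named after its values were seen, lay at 28.9 FPKM in the library labelled control replicate 1 and at 168 and 170 FPKM in the other 2 controls.

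The remaining lists described here had 1 call in all. Chaperones that fold actin, the TRiC and prefoldin subunits, had 0 of 13 called (2, 1 and 1 at an unadjusted limma p under 0.05), with median log2 changes of −0.30, 0.10 and −0.20 in the order of the 3 comparisons above. Actin-related proteins outside the Arp2/3 complex had 0 of 6 called, and 0, 0 and 1 at an unadjusted limma p under 0.05. Over all 8853 tested genes, 3.92%, 3.72% and 9.73% were called, and 1529, 1288 and 2426 had an unadjusted limma p under 0.05. Of the 2 genes that respond to free actin monomer, bs, the fly serum response factor, rose with ph+E(z)+CtBP RNAi against control RNAi by 0.43 ± 0.11 (limma adjusted p = 0.0475), a call that held in 1 of 9 fits with a library left out. Mrtf, the cofactor that binds monomeric actin, was called in no comparison. It lay at 11.4, 8.74 and 10.3 FPKM with ph+E(z)+CtBP RNAi, at 9.20, 11.7 and 12.8 FPKM with ph+E(z) RNAi, and at 2.51, 12.0 and 11.5 FPKM with control RNAi, the low value being that of the library labelled control replicate 1.

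**Figure D4:**
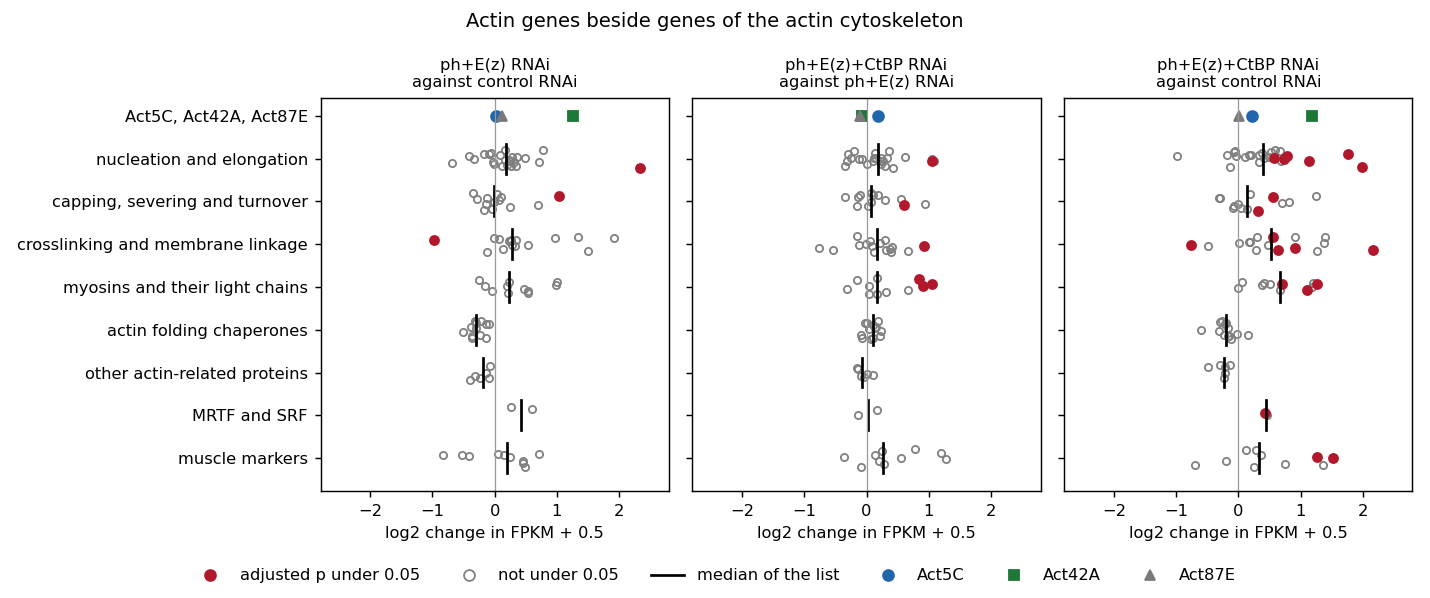
Log2 change in FPKM + 0.5 (horizontal axes) of the 3 tested actin genes and of each tested gene of 7 of the 8 lists of actin regulators and of the muscle markers, 1 row per list, in the 3 comparisons. Filled red circles had a limma adjusted p under 0.05, and the short black line is the median of the list. Act42A stands near 1.2 in the left and right panels, beside 3 and 17 called regulators of 91 tested in the 8 lists. Over all tested genes, 3.92% and 9.73% were called in these comparisons.

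Act5C is widely used as a reference gene in fly expression work, and its spread was set, with that of Act42A, beside that of 10 further reference genes. The SD of log2(FPKM + 0.5) over the 9 libraries was 0.22 for Act5C, the fifth lowest of the 12 genes, and 0.64 for Act42A, the highest of the 12. RpS20, a ribosomal protein gene, had the smallest SD at 0.12, and the glycolysis gene Gapdh2 came just under Act42A at 0.63. Of all tested genes, 27.7% had a smaller SD than Act5C and 83.5% a smaller SD than Act42A. The library labelled control replicate 1 enters each SD. It had 6740 FPKM of RpL32, against 3265 to 4258 FPKM elsewhere, and 649 FPKM of Cyp1, against 362 to 472 FPKM. For eIF-1A it had 654 FPKM, against 1090 to 1460 FPKM. Its 3921 FPKM of Act5C lay within the range of the other libraries, but above the 2740 and 2712 FPKM of the other controls. The order of the 12 genes without that library was not worked out and may differ. Of the 10 reference genes, 0 passed the test in each of the 3 comparisons, with median log2 changes of −0.10, −0.12 and −0.29. At an unadjusted limma p under 0.05 there were 2, 1 and 2, beside 1529, 1288 and 2426 of all 8853 tested genes. Without the library labelled control replicate 1, 1 fell with ph+E(z) RNAi against control RNAi, and 1 fell with ph+E(z)+CtBP RNAi against control RNAi. With ph+E(z)+CtBP RNAi relative to ph+E(z) RNAi, 2 rose and 1 fell in that fit. No share over all genes is set beside these counts, and calls over all tested genes also moved widely with a library left out. The counts without that library are therefore not a result about reference genes.

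The genes whose pattern was most like that of an actin gene were found by the root mean square difference between log2 values, each centred on its own mean over the 9 libraries. For Act42A, whose own values deviated from their mean by 0.61, the nearest 5 named genes were vap (0.14), SoxN (0.15), sqz (0.17), mthl3 (0.18) and glob1 (0.19). The gene vap encodes a Ras GTPase-activating protein, SoxN a SOX transcription factor, sqz a zinc-finger factor and glob1 a globin. Levels of vap averaged 54.6 FPKM with ph+E(z)+CtBP RNAi, 58.6 FPKM with ph+E(z) RNAi and 28.5 FPKM with control RNAi. For Act5C, whose own deviation was 0.21, the nearest were Vha36 (0.056), Spt-I (0.081), Ilk (0.083), pncr013:4 (0.085) and Tango9 (0.086). For Act87E, with an own deviation of 0.30, they were TwdlE (0.15), cbx (0.20), Mat89Bb (0.20), MP1 (0.20) and BG4 (0.21). These distances are descriptions over 9 libraries and carry no test.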

How the data were processed

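RNA was measured in 9 libraries, 3 for each of 3 RNAi groups. The authors deposited FPKM values per gene and library, group means of FPKM, and q-values for 2 comparisons of groups. TopHat2 2.1.0, Bowtie2 2.2.6, Cufflinks, Cuffdiff and R 3.2.3 were used with the dm6 build, per the submitters' processing notes. The sources used here do not give the scaling between libraries, the read numbers or the strand setting, so depth is unknown beyond the steps seen in low values, by which 1 fragment was worth up to 1.18 times as much in one library as in another. No member has the same start in the deposited positions and in dm6, so coordinates come from the dm6 annotation.

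Genes with at least 0.5 FPKM in at least 3 libraries were fitted on log2(FPKM + 0.5) by limma 3.58.1, run under R 4.3.3, with 1 fit of all 9 libraries, a mean-variance trend and Benjamini-Hochberg adjustment within each comparison at 0.05. The fit was tested on simulated data. The remaining steps used Python 3.11.15, pandas 2.3.3 and scipy 1.17.1. Levels are mean ± SD of 3 libraries. The members and all gene lists were chosen with earlier results of these data known. Of 142 listed genes, 140 were found, 3 of them by identifier, and list counts are descriptions without a test of the list. Of the 8 lists of actin regulators, 1 enters their combined counts but is not reported here on its own. Named were the 6 actin genes, the RNAi targets, up to 3 called genes per list and comparison with the smallest adjusted p (at most 2 where none was called), and the 5 nearest genes for each tested actin gene. Where 5 or fewer genes of a list were called, the others among them were also named after their values were seen, as were Hem, Sra-1, WASp, single muscle and hemocyte markers and PNGase. Alternatives covered the pseudocount (0.1 and 1), the filter, the scaling, the variance model, fits restricted to the 2 groups compared, a replicate block and each library left out. Sequences of the actin genes were not used here.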

Additional observations from a re-analysis of the deposited data

How the results depend on the processing

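Act42A kept its direction against control RNAi in every alternative run, and with ph+E(z)+CtBP RNAi it stayed called in each of them (log2 change 1.06 to 1.39 with a library left out). With ph+E(z) RNAi the range with a library left out was 1.13 to 1.32, and leaving out ph+E(z) replicate 2 (1.24) or 3 (1.27) ended the call. With the replicate block, which no label supports and whose same-numbered libraries correlated at only −0.14 to 0.20, Act42A changed by 1.25 (limma adjusted p = 0.0337) and 1.18 (limma adjusted p = 0.0241), and 212 genes were called with ph+E(z) RNAi against control RNAi. Quality weights called 2924, 2396 and 3278 of the 8853 tested genes in the 3 comparisons, against 347, 329 and 861 in the main fit. They gave Act5C 0.31 with ph+E(z)+CtBP RNAi relative to ph+E(z) RNAi and 0.48 against control RNAi. They turned the changes of Act42A (0.064) and Act87E (0.087) with ph+E(z)+CtBP RNAi relative to ph+E(z) RNAi. Fits of 2 groups called 210, 793 and 378 genes. With a library left out the counts ranged over 108 to 602, 89 to 1191 and 298 to 1541.

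Other sign changes concerned values within their error. Act5C with ph+E(z) RNAi against control RNAi ranged from −0.061 to 0.20 with a library left out, and Act42A with ph+E(z)+CtBP RNAi relative to ph+E(z) RNAi from −0.20 to 0.13. Act87E with ph+E(z)+CtBP RNAi against control RNAi was −0.00072 with a pseudocount of 0.1 and −0.15 after quantile normalization, and ranged from −0.18 to 0.28 with a library left out. Its other ranges were −0.065 to 0.34 with ph+E(z) RNAi against control RNAi and −0.26 to 0.16 for the addition of CtBP RNAi. The cause was not tested. A filter of 1 FPKM gives no value for Act87E. The share of calls that were higher, 65.7%, 52.3% and 57.4%, became 50.9%, 48.8% and 49.6% with quality weights. The first of these was 75.5% with the replicate block and 59.1% to 80.6% with a library left out, and the third was 48.4% after quantile normalization. Depth limits Act57B, Act79B and Act88F, of which no group held more than 14 fragments. It also limits the tested member Act87E, whose values were 2.01 to 10.1 times the FPKM of 1 Act88F fragment.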
